A study of Mus musculus with 20 samples.

Results

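The Zfp genes are the mouse genes whose symbol is Zfp followed by a number, a name given to zinc finger proteins. The 204 members described here were the protein-coding genes of this name whose 3′ UTR held 50 or more read counts summed over 9 sequencing runs, out of 20586 UTR rows in the table. Zfp36, Zfp36l1 and Zfp36l2, which encode RNA-binding proteins with fingers of another type, were left out by the rule. A further 84 Zfp UTRs were named but held fewer counts, 24 of them with 0 and 60 with 1 to 49, and 38 UTRs with a Zfp candidate symbol that stood outside the alphabetical order of the rows were not used, 21 of which held 50 counts or more. Just inside the minimum lay Zfp583 with 51 counts and Zfp248 and Zfp442 with 53 each, and just outside it Zfp54 with 49 and Zfp28 and Zfp658 with 47 each. The members were chosen on the summed count, and the family was chosen for description because its levels differed between runs, so the levels by run are given as a description without a test.

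Most Zfp proteins carry arrays of C2H2 fingers, in which a pair of cysteines and a pair of histidines hold a zinc ion, and neighbouring fingers read a DNA sequence together. Many of them also carry a KRAB domain, which recruits the corepressor TRIM28 and through it histone methylation that silences target sequences, among them transposable elements. Genes of this kind lie in clusters that arose by tandem duplication, whereas other members of the name are single genes with roles in transcription, RNA handling, ubiquitin or SUMO transfer and cell division.

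The series is an RNA immunoprecipitation study of CPEB4, a protein that binds cytoplasmic polyadenylation elements in 3′ UTRs. CD8 T cells from the spleen and lymph nodes of wild-type (WT) and Cpeb4 knockout (KO) C57BL/6 animals were kept for 48 h with anti-CD3 and anti-CD28 antibodies at 1 μg/ml each and IL-2 at 20 ng/ml, in WT and KO alike. Input RNA was poly(A) selected and amplified for 12 PCR cycles, and RNA precipitated with a homemade anti-CPEB4 antibody (IP) was not selected and was amplified for 7 cycles. The labels used here give neither the age of the animals, nor the kind of knockout allele, nor whether each library had its own animals. The p-values below thus cover the spread between these libraries, which may be technical.

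Row names match their counts only in the first 9 of the 20 count columns. The 9 columns are runs of 6 libraries, named D1 or RIP8 in the labels with a sequencing batch number: the WT and KO inputs of D1, WT IP D1 (batches 2 and 3), KO IP D1 (batches 2 and 3), WT input RIP8 (batches 1 and 2) and KO input RIP8. The other 11 columns were not used for any gene. Counts per 1000000 counts of a run (CPM) are given after leaving out 1 UTR of Lars2, the mitochondrial leucyl-tRNA synthetase gene, which alone took between 1.16% and 50.1% of the counts of a run. In 5 runs it took 34.8% or more, and these are called the Lars2-rich runs: both D1 inputs, WT IP D1 batch 2, batch 1 of WT input RIP8, and KO input RIP8. In 4 runs, namely WT IP D1 batch 3, both KO IP D1 runs and WT input RIP8 batch 2, called the other runs, it took at most 5.40%. Over all 9 runs the split does not fully follow genotype, IP or sequencing batch, and it separates runs that the labels give to 1 library. Among the KO runs it coincides with IP: both KO inputs are Lars2-rich and both KO IP runs are not. Without Lars2 the Lars2-rich runs held 192134 to 317395 counts and the other runs 2464476 to 4085902, so that 1 count was worth up to 5.20 CPM in the former and as little as 0.245 CPM in the latter. CD8 T cell markers (8 of 8 genes, among them Cd8a, Cd8b1 and Cd3e) summed to 3045 to 3954 CPM in the Lars2-rich runs and 4798 to 10901 CPM in the others. CD4 T cell markers (3 of 4 genes) summed to 85.1 to 167 CPM and 59.2 to 115 CPM, ranges that overlap. B cell markers summed to at most 97.7 CPM, myeloid markers to 102, stromal markers to 75.6, natural killer cell markers to 14.1, and erythroid and platelet markers to 0.261. Cpeb4 itself stood at 110 to 195 CPM in the Lars2-rich runs and 12.0 to 47.1 CPM in the others. The runs labelled KO input had 110 CPM (D1) and 126 CPM (RIP8). WT input had 125 CPM in D1 and 195 CPM in RIP8 batch 1. Its UTR thus did not separate the genotypes without overlap. The deleted stretch of the gene is not stated in the labels, and groups are therefore named as labelled throughout.

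The share of all UTR counts that fell on the 204 Zfp UTRs was higher in every Lars2-rich run than in any other run. Of the Lars2-rich runs, WT input D1 had a Zfp share of 1.57%, KO input D1 had 1.56%, batch 2 of WT IP D1 had 1.59%, batch 1 of WT input RIP8 had 1.56% and KO input RIP8 had 1.63%. Of the other runs, batch 3 of WT IP D1 had 0.570%, batches 2 and 3 of KO IP D1 had 0.605% and 0.741%, and batch 2 of WT input RIP8 had 0.700%. The groups of runs did not overlap, and the 95% Wilson intervals, which cover counting error only, ran from 1.51% to 1.68% over the first set and from 0.562% to 0.752% over the second. Within the second set the intervals of the runs did not overlap each other. The highest share was 2.87 times the lowest, and 1.83 times when Lars2 was kept in the totals.

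**Figure D1:**
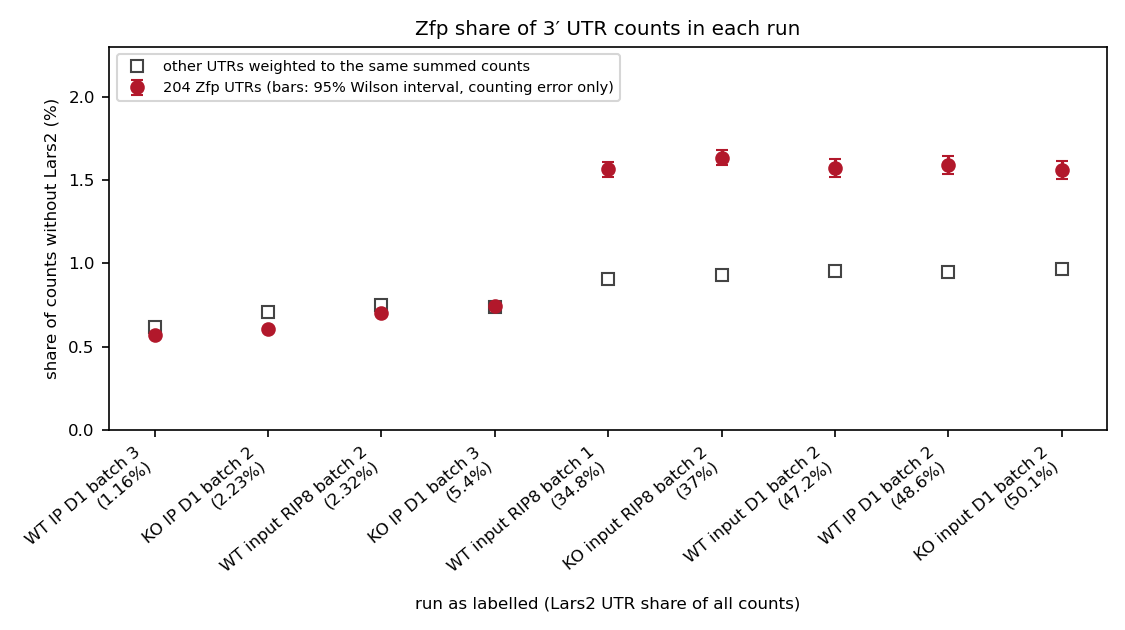
Share of UTR counts without Lars2 (vertical axis, %) on the 204 Zfp UTRs (filled points, bars: 95% Wilson interval, counting error only) and on other UTRs weighted to the same summed counts (open squares), for the 9 runs in order of their Lars2 share. The 5 Lars2-rich runs lie between 1.56% and 1.63% and the other 4 between 0.570% and 0.741%, while the open squares lie between 0.621% and 0.964%.

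Other UTRs with like summed counts showed a smaller difference. These were not limited to UTRs with a symbol, and Zfp candidates outside the row order were not removed from them. Weighted to the Zfp members over bins of summed count, 9869 other UTRs took 0.908% to 0.964% in the Lars2-rich runs and 0.621% to 0.749% in the other runs. The Zfp share divided by this share was 1.62 to 1.76 in the Lars2-rich runs and 0.856 to 1.01 in the others. The highest of these ratios was 2.05 times the lowest, and 1.77 times when the 12 members with the most counts were left out. The median Zfp member stood at 29.8 to 35.0 CPM in the Lars2-rich runs and at 12.8 to 18.9 CPM in the others, where the median of the like-count UTRs was 18.9 to 21.0 and 13.5 to 19.3 CPM.

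More of the members were higher than lower in the Lars2-rich runs. For each member the mean of CPM + 10 over the 5 Lars2-rich runs was divided by that over the 4 others, and the log2 of this ratio was above 0 in 164 of 204 members (80.4%), with a median of 0.68 and quartiles of 0.15 and 1.27. Among the like-count UTRs 54.3% were above 0, with a median of 0.09. In 81 members (39.7%) every Lars2-rich run lay above every other run, against a background of 21.9% of the 10465 UTRs with 50 or more counts. In 7 members (3.43%) every Lars2-rich run lay below every other run, where the background was 20.6%. The like-count UTRs gave 22.0% wholly above and 15.3% wholly below. With Lars2 kept in the totals, which shifted the median of all UTRs by −0.47, 116 members were above 0 and 48 lay wholly above, and the members' median of 0.09 was 0.55 above that of all UTRs, compared with 0.67 without Lars2. The CD8 and CD4 T cell markers and the depth differ between the same sets of runs, as given above, and their part in the Zfp difference was not tested. Between these bulk libraries, fewer cells that express a gene and less of its RNA per cell cannot be told apart. Runs that the labels give to 1 library share their cells and RNA as labelled, and the differences between such runs are given below.

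**Figure D2:**
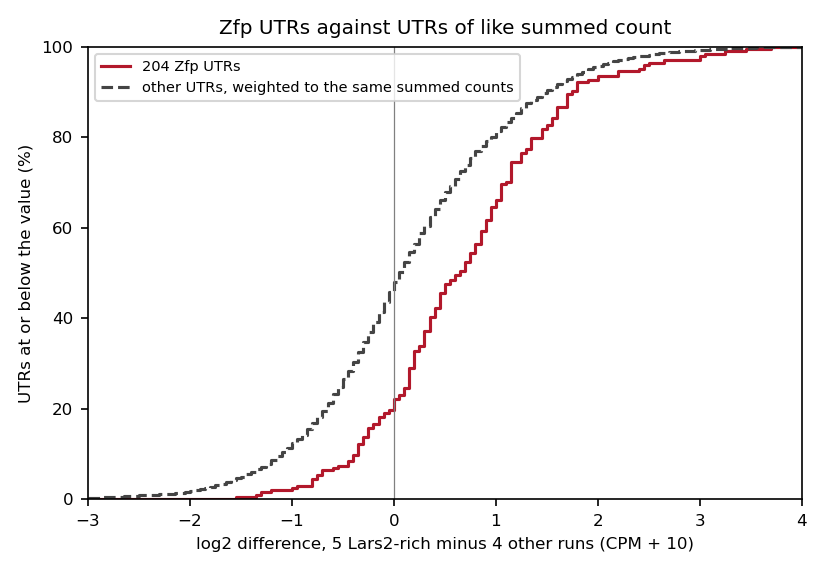
Cumulative share of UTRs (vertical axis, %) at or below a log2 difference between the 5 Lars2-rich and the 4 other runs (horizontal axis, CPM + 10), for the 204 Zfp UTRs (solid) and for other UTRs weighted to the same summed counts (dashed). The Zfp curve lies to the right, with a median of 0.68 against 0.09.

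The difference appeared within single libraries that had been sequenced more than once. In the run of WT IP D1 of batch 2, which is Lars2-rich, 81.9% of the members stood higher than in batch 3 of the same library, with a median log2 difference of 0.86, while 59.0% of the like-count UTRs did, with a median of 0.29. In WT input RIP8, 73.0% of the members stood higher in the Lars2-rich batch 1 than in batch 2, with a median of 0.55, and 48.3% of the like-count UTRs did, with a median of −0.03. Both runs of KO IP D1 were poor in Lars2, and between them the members' median difference, batch 3 minus batch 2, was 0.07 and that of the like-count UTRs 0.03. Over the members, the counts of the 3 Lars2-rich runs labelled D1, both inputs and batch 2 of the WT IP, agreed within sampling noise, with a chi-square per degree of freedom of 0.744 to 1.14 in the 3 pairs, although the labels put them in 3 groups. The runs labelled WT input RIP8 batch 1 and KO input RIP8 batch 2 gave 1.16. The 2 runs labelled WT IP D1 gave 27.5, the 2 runs labelled WT input RIP8 gave 19.8 and the 2 runs labelled KO IP D1 gave 11.7. With 1 of the 3 agreeing D1 runs kept, 157 members were above 0 and 90 lay wholly above, with a median of 0.57. The number wholly above cannot fall when fewer runs have to be in order. With the D1 runs alone 158 members were above 0, and with the RIP8 runs alone 159.

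Zfp451, whose human counterpart is a SUMO ligase, had the largest log2 difference, 3.72. It stood at 1109, 1130 and 1081 CPM in the Lars2-rich runs of D1 (WT input, KO input and WT IP batch 2), at 1065 and 1146 CPM in those of RIP8 (WT input batch 1 and KO input), and at 93.7, 63.8, 78.3 and 62.2 CPM in WT IP D1 batch 3, KO IP D1 batches 2 and 3 and WT input RIP8 batch 2. The Lars2-rich runs were all more than 1000 CPM and the others all less than 100. Its raw counts lay within 193 to 374 in all 9 runs, although the depth of the runs differed as given above.

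Zfp207 encodes a microtubule-binding protein that works with BUB3 at the kinetochore in mitosis. Its levels were 370, 265, 331, 428 and 382 CPM in the Lars2-rich runs, in the order just used, and 29.6, 23.2, 43.0 and 16.2 CPM in the others, a log2 difference of 3.26. Its raw counts were 53 to 136 in every run. Zfp871 stood at 557, 485, 543, 933 and 1114 CPM in the Lars2-rich runs and at 25.3, 41.2, 142 and 94.7 CPM in the others. Its log2 difference was 3.10, the sets did not overlap, and within the Lars2-rich set both RIP8 runs lay above all D1 runs. Zfp101, on the same chromosome, stood at 120, 175, 173, 262 and 224 CPM against 5.51, 11.2, 25.6 and 15.2 CPM, a log2 difference of 3.04.

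Zfp672 shows the pattern at low counts. It had 30, 31, 26, 28 and 30 counts in the Lars2-rich runs and 0, 11, 10 and 6 counts in the others, in spite of their greater depth. Between the 2 runs labelled WT IP D1, 26 counts (128 CPM) stood against 0. A count of 0 at the depth of batch 3 allows up to 3 counts, or 0.752 CPM, which makes batch 2 at least 170.6-fold higher, before any counting error of the 26 counts. Zfp386 had 38, 37, 41, 23 and 23 counts in the Lars2-rich runs and 28, 39, 31 and 28 in the others, so that its counts barely moved while its level differed by 3.04 on the log2 scale. Zfp945, Zfp933, Zfp169 and Zfp799 followed with log2 differences of 2.67, 2.51, 2.48 and 2.46.

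Promoter stretches are shown for Zfp451, Zfp207, Zfp871 and Zfp101, the 4 members with the largest log2 difference among those with 200 or more counts. They were picked on this difference, so that their levels moved together follows from the choice. A link between promoter letters and levels was not tested. Each is a window of 30 bases placed around the first CCAAT. Of the 204 members 168 matched a RefSeq promoter (GRCm38.p6, 250 bases before to 50 after the start). The letters CCAAT, a motif known for the factor NF-Y, are in capitals, printed 5′ to 3′ on the strand of the gene, where ATTGG is CCAAT read on the other strand.
Zfp451 (chr1:33814729-33814758, minus strand, 151 bases before the start): agcggaacgagaATTGGcgtggactcaaaa
Zfp207 (chr11:80383038-80383067, plus strand, 229 bases before the start): attgaccatgtcCCAATtatctttatttat
Zfp871 (chr17:32788372-32788401, minus strand, 102 bases before the start): tgtcatttaagcATTGGgaggcgtgcacgt
Zfp101 (chr17:33394783-33394812, minus strand, 163 bases before the start): gtctgggttaagATTGGgtgttgctctatc
CCAAT, searched on both strands, was in 47.6% of the members' promoters, in 39.0% of 6654 promoters of other counted genes and in 37.9% of all 27025 promoters. GGGCGG, the GC box, was in 50.6% of the members' promoters and 67.5% of those of the other counted genes. CCGGAA, the core read by ETS factors, was in 37.5% and 30.9%, and TATAAA in 5.36% and 6.30%. None of these motifs holds another in full, and each match is a description of letters and not a binding site. The members' promoters held a median of 55.2% G and C and 16 CG steps, against 61.3% and 22 for the other counted genes and 52.7% and 7 for all promoters.

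The 12 members with the most counts did not share 1 pattern. Zfp281, a transcription factor that binds GC-rich promoters and is known from pluripotent cells, had the most counts (6251), and it stood at 323, 265, 227, 271 and 256 CPM in the Lars2-rich runs and at 570, 454, 342 and 262 CPM in the others. The sets overlapped, through WT input RIP8 batch 2, and the log2 difference was −0.58. Zfp395 stood at 257 to 459 CPM in the Lars2-rich runs and 213 to 367 CPM in the others, and Zfp706 at 126 to 230 and 142 to 155 CPM, with log2 differences of 0.20 and 0.19. In these 3 genes the Lars2-rich and the other runs overlapped.

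The other 9 of the 12 were higher in the Lars2-rich runs, 8 of them without overlap. Zfp652 stood at 651, 665, 656, 728 and 778 CPM in the Lars2-rich runs and at 28.8, 88.8, 244 and 211 CPM in the others, a log2 difference of 2.20. Zfp148, a GC-box binding factor, stood at 400 to 498 CPM in the Lars2-rich runs and 129 to 142 CPM in the others, with a log2 difference of 1.62. Zfp91, an atypical ubiquitin ligase of the non-canonical NF-κB pathway, stood at 302 to 455 and 138 to 168 CPM, with a log2 difference of 1.20. Zfp292, Zfp740, Zfp280b and Zfp367 had log2 differences of 1.36, 1.53, 1.38 and 1.54. Only Zfp106, an RNA-binding zinc finger protein, overlapped among these 9, with 217 to 343 CPM in the Lars2-rich runs and 61.9, 128, 254 and 182 CPM in the others, a log2 difference of 0.80. Of the 12, Zfp148, Zfp281, Zfp292, Zfp395, Zfp706 and Zfp91, were above 100 CPM in every run, as no other member was.

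**Figure D3:**
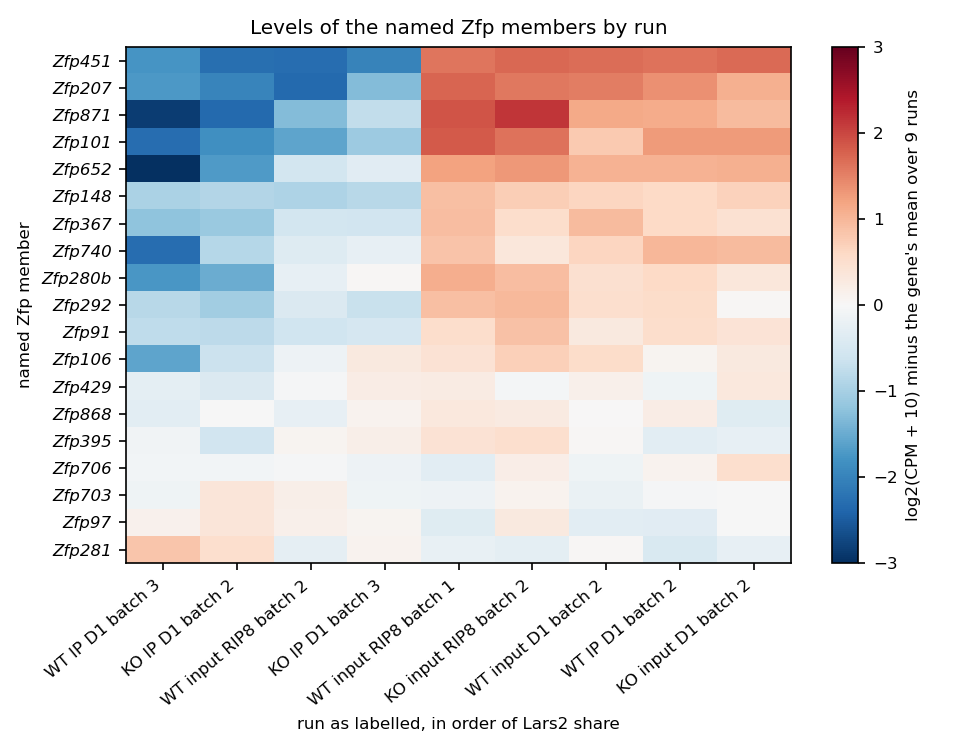
Levels of 19 named Zfp members (rows) in the 9 runs (columns, in order of Lars2 share), as log2(CPM + 10) minus the mean of the gene over the 9 runs. Zfp451, Zfp207, Zfp871 and Zfp101 are high in all 5 Lars2-rich runs at the right and low in the other 4, whereas Zfp706, Zfp703 and Zfp97 stay near 0 and Zfp281 is highest in WT IP D1 batch 3.

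Among the 126 members with 200 or more counts, the level (CPM + 10) of the highest run exceeded that of the lowest 31.8-fold in Zfp871, 20.3-fold in Zfp652, 17.5-fold in Zfp101, 16.8-fold in Zfp207 and 16.0-fold in Zfp451. The steadiest were Zfp703 (1.47-fold), Zfp868 (1.60-fold), Zfp429 (1.66-fold), Zfp97 (1.68-fold) and Zfp706 (1.76-fold). Zfp703, which encodes a nuclear corepressor, stood at 20.8 to 28.0 CPM in the Lars2-rich runs and 22.3 to 35.4 CPM in the others. Zfp706 thus belonged both to the members with the most counts and to the steadiest.

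The 7 members that lay wholly below in the Lars2-rich runs were Zfp131, Zfp622, Zfp143, Zfp1, Zfp524, Zfp277 and Zfp51. Zfp622, whose human counterpart takes part in the maturation of the large ribosomal subunit, stood at 20.8, 15.0, 19.7, 25.2 and 21.0 CPM in the Lars2-rich runs and at 94.2, 74.8, 45.0 and 44.1 CPM in the others, a log2 difference of −1.30. Zfp143, an activator that binds at many promoters, stood at 4.94 to 31.5 CPM against 31.8 to 60.7 CPM, so the sets were separated by little. Zfp1 had 0, 0, 2, 5 and 2 counts in the Lars2-rich runs and 219, 124, 55 and 74 counts in the others, and Zfp51 had 0 counts in all 5 Lars2-rich runs and 35, 27, 22 and 15 in the others. Zfp771 had the lowest log2 difference of all members, −1.51, from 1, 0, 1, 0 and 1 counts in the Lars2-rich runs and 268, 100, 12 and 27 counts in the others. It was not among the 7, since KO IP D1 batch 3 (4.87 CPM) lay below WT input D1 (5.20 CPM). Of the other extremes at the low end, Zfp524 had a log2 difference of −1.15 and Zfp110 of −0.96.

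The members also differed within each set of runs. Among the Lars2-rich runs, 43 members were higher in every D1 run than in both RIP8 runs and 35 were lower, or 21.1% and 17.2%, where the like-count UTRs gave 18.3% and 16.6%. Among members with 200 or more counts the widest of these differences, D1 minus RIP8, were 1.24 in Zfp386, 1.10 in Zfp949 and −0.94 in both Zfp7 and Zfp871. Among the other runs, KO IP D1 batch 3 and WT input RIP8 batch 2 had a Spearman rho of 0.968 over the members, a pair that crosses both genotype and IP labels. WT IP D1 batch 3 and KO IP D1 batch 2, at 0.894, were hardly closer to each other than the latter was to WT input RIP8 batch 2 (0.889) and to KO IP D1 batch 3 (0.886). In these remaining 2 runs 50 members stood above both runs of the closer pair and 89 below, or 24.5% and 43.6%, close to the 24.7% and 42.3% of the like-count UTRs. The widest differences, the remaining runs minus the closer pair, were −2.34 in Zfp609, −1.79 in Zfp652 and −1.57 in Zfp871 on one side and 1.85 in Zfp771 and 1.33 in Zfp617 on the other.

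Members with a longer genomic distance from the UTR start to the end of the gene had larger differences. This distance can span sequence other than the UTR. For the 86 members on the plus strand the distance from the UTR start to the RefSeq gene end had a median of 1625 bases, compared with 1267 bases for 3621 other plus-strand UTRs. Across genes, the Spearman rho between this distance and the log2 difference was 0.58 in the members and 0.63 in the other UTRs. Genes are not independent replicates, and all points share the same runs. Under 1000 bases the median log2 difference was −0.0035 in 28 members and −0.65 in 1518 other UTRs. From 1000 to under 3000 bases it was 0.86 in 39 members and 0.15 in 1368 others, and from 3000 bases on it was 1.16 in 19 members and 0.99 in 735 others. The members thus stood above other UTRs of the same class by 0.65 and 0.70 in the shorter classes and by 0.17 in the longest. Fewer than 20 members filled the longest class. Distances within a class were not alike, with medians of 669 bases in the members and 440 in the others under 1000 bases. From 1000 to under 3000 bases they were 1751 and 1709.5, and from 3000 bases on 6559 and 4499. Zfp771 (255 bases) and Zfp1 (548 bases) had short distances and Zfp207 (15316 bases) a long one, while Zfp652 had a difference of 2.20 at 656 bases.

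**Figure D4:**
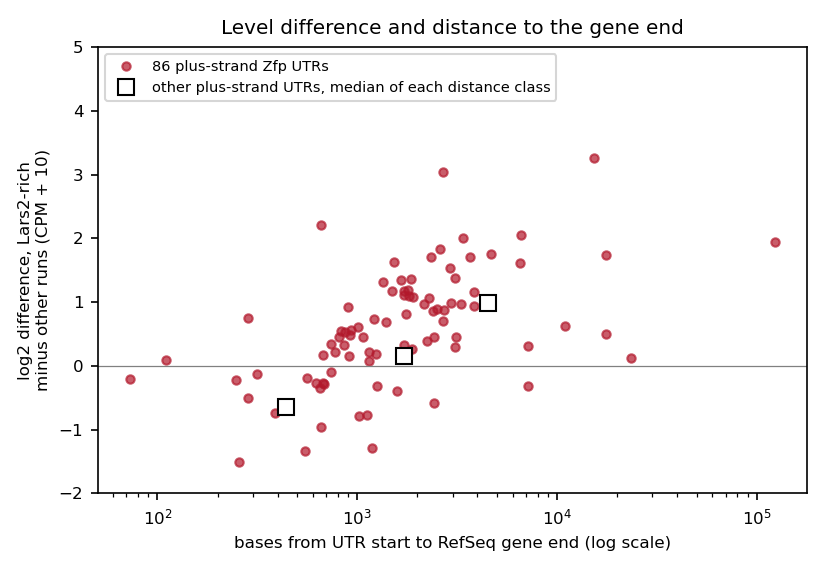
Log2 difference between Lars2-rich and other runs (vertical axis, CPM + 10) against the distance in bases from UTR start to RefSeq gene end (horizontal log axis) for the 86 Zfp members on the plus strand, with the median of other plus-strand UTRs in each of 3 distance classes as squares. Members under 1000 bases scatter around 0 and most of those from 1000 bases on lie above it.

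The members lay unevenly in the genome (mm10). Chromosome 7 held 47 of them, 23.0% of the members against 7.42% of all named UTRs with 50 or more counts, chromosome 17 held 26 (12.7% against 5.20%) and chromosome 13 held 23 (11.3% against 3.82%). For 108 members (52.9%) the next protein-coding gene on at least 1 side was another Zfp gene, as for 2.12% of these named UTRs of other genes. The 108 had a median of 227 summed counts and a median log2 difference of 0.45, above 0 in 85 of them. The 96 members without such a neighbour had a median of 442.5 summed counts and a median log2 difference of 0.81, above 0 in 79 of them.

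The 6 clusters with 5 or more members differed from each other. The largest, 17 members with UTR starts from 67038594 to 67826261 on chromosome 13, among them Zfp712, Zfp759, Zfp429 and Zfp273, had a median log2 difference of 0.41 and a range of −0.15 to 1.73. The 11 members on chromosome 7 from 29777565 to 30161274 had a median of 1.10, with 10 above 0. They include Zfp568, a KRAB protein known to repress a placental transcript of Igf2, which had a log2 difference of 1.81, and Zfp82. On the same chromosome, 7 members from 127237051 to 127865170, among them Zfp771 and Zfp668, had a median of 0.08 and ranged from −1.51 to 1.55. On chromosome 17, 5 members from 32771236 to 33004064 had a median of 0.69, with Zfp871 at 3.10 and Zfp799 at 2.46, whereas 7 from 21398588 to 21990971, among them Zfp51, Zfp942 and Zfp943, had 0.21. The 6 on chromosome 6 from 47866948 to 48062395 were all above 0, with a median of 0.43. Near-identical copies in such clusters can share reads, and how reads with several matches were counted is not given in the sources used here, so the split of counts between neighbours is uncertain.

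Other zinc finger families were set beside the Zfp genes over the same runs. The 34 Zbtb genes, which carry a BTB domain in place of KRAB, had a median log2 difference of 0.78, above 0 in 27, and 14 lay wholly above in the Lars2-rich runs. The 4 Ikzf genes, lymphoid regulators, were all above 0 with a median of 1.04, and 7 Zscan genes had 1.06. The 7 Zkscan genes had a median of −0.17 and the 9 Klf genes of −0.24. The 3 genes left out by the rule, Zfp36, Zfp36l1 and Zfp36l2, had a median of 0.78. The median of all 10465 UTRs was 0.02. In the edgeR fit of all 6 libraries given below, where 0% of all UTRs were called, 0 genes of these families were called in the 5 comparisons.

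Corepressor genes that work with KRAB zinc fingers did not follow the members as a list. Of 16 genes, 8 were above 0, and the median was 0.12. Trim28, which KRAB domains recruit, stood at 15.6 to 37.8 CPM in the Lars2-rich runs and 89.1 to 109 CPM in the others, a log2 difference of −1.41, without overlap. Dnmt1, the maintenance DNA methyltransferase, had −1.56, and Chd4, the NuRD remodeller, −1.53. Cbx1, a heterochromatin protein, stood at 98.1 to 173 CPM against 5.01 to 20.3 CPM, a log2 difference of 2.71, and the deacetylase gene Hdac2 had 2.97. Setdb1, the histone methyltransferase that TRIM28 recruits, had 0.29.

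The design asks which UTRs are enriched by the CPEB4 antibody, in WT and not in KO cells, and this was tested over libraries with edgeR's quasi-likelihood test. Runs of a library were summed, all 204 members were among the 11496 UTRs tested, and p-values were adjusted over all of these. The sets of runs described above do not spread evenly over the groups. Lars2 took 47.2% and 5.70% of the counts in the 2 WT inputs (D1 and RIP8), 50.1% and 37.0% in the 2 KO inputs, 5.37% in the WT IP and 3.50% in the KO IP. The Zfp share without Lars2 was 1.57% and 0.762% in the WT inputs, 1.56% and 1.63% in the KO inputs, 0.619% in the WT IP and 0.658% in the KO IP. IP against input in the KO therefore coincides with the split by Lars2, and these cannot be told apart.

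No member passed an adjusted p of 0.05 in any of the 5 comparisons by edgeR, where 0% of all UTRs were called. For WT IP over WT input, 8 members were higher at an unadjusted p under 0.05 (3.92%, against 5.72% of all UTRs) and 4 lower (1.96%, against 1.92%). DESeq2 called 0 members and 0.244% of all UTRs, and limma voom 0 members. Before adjustment DESeq2 had 10 members under 0.05 (6.38% of all UTRs) and limma voom 19 (12.3%). Without the low-count filter edgeR called 1 member as higher, Zfp771, where 0.629% of UTRs were. With the D1 or RIP8 set as a block it called 3, Zfp771 and Zfp1 as higher and Zfp672 as lower, where 4.66% of UTRs were called. That fit has 1 residual degree of freedom. The members' median log2 fold change was −0.28 and that of all UTRs −0.10. The members' median was 0.0274 without WT input D1, −1.22 without WT input RIP8, 0.58 in the batch 2 runs alone and −1.06 with the runs outside batch 2.

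The members with the smallest p in this comparison did not pass the threshold. Zfp771 had 269 counts in the WT IP and 1 and 27 in the WT inputs D1 and RIP8, with a log2 fold change of 3.89 ± 1.02 (SE) and an adjusted p of 0.579 by edgeR. Zfp668 had 209 counts against 1 and 42 (3.03 ± 0.97), and Zfp617 335 against 6 and 89 (2.24 ± 0.83). Zfp524 and Zfp180 were the other higher members named, with 3.47 and 1.82. On the low side Zfp609 had 91 counts in the WT IP and 31 and 720 in the inputs, with −2.38 ± 0.88 and an adjusted p of 0.632 by edgeR. Zfp652 (−2.33), Zfp942 (−2.37), Zfp664 (−1.92) and Zfp672 (−2.91) followed, with adjusted p-values up to 0.637. The direction of 6 of these 10 turned when the batch 2 runs alone were used: Zfp617, Zfp180, Zfp609, Zfp652, Zfp664 and Zfp672.

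For KO IP over KO input the members leaned lower, with a median log2 fold change of −0.72 against 0.20 for all UTRs. It stayed below 0 under every alternative fitted, from −1.26 in the batch 2 runs alone to −0.58 with Lars2 kept. This comparison coincides with the split by Lars2, and the family was chosen because its levels differed between runs. The lean is therefore not separate support for an effect of the IP. At an unadjusted p under 0.05, 17 were lower (8.33%, against 4.79% of all UTRs) and 2 higher (0.980%, against 10.2%). Zfp451 had 438 counts in the KO IP and 226 and 327 in the KO inputs, which are shallower, with a log2 fold change of −3.76 ± 1.29 (SE). Zfp672 had 21 counts against 31 and 30 (−4.98 ± 1.53), and Zfp101 106 against 35 and 64 (−3.30 ± 1.01). Zfp82 (−4.01) and Zfp871 (−3.06) completed the lower side, and adjusted p-values by edgeR lay between 0.259 and 0.271 for these 5. DESeq2 called 4 of them as lower, Zfp451 (adjusted p = 0.0180), Zfp672 (0.0132), Zfp871 (0.0395) and Zfp101 (0.0335), where it called 0.539% of all UTRs as lower. Without the low-count filter edgeR called 3 as lower, Zfp672, Zfp101 and Zfp386, where 0.642% of UTRs were. With the D1 or RIP8 set as a block edgeR called 21 members, 19 lower and 2 higher (Zfp622 and Zfp1), where 17.2% of UTRs were called. All 5 lower members named were among the 19, with log2 fold changes from −6.27 in Zfp672 to −3.16 in Zfp871. This fit has 1 residual degree of freedom, from the inputs, and each IP is 1 library. On the higher side Zfp771 had 112 counts against 0 and 1 (3.36 ± 1.41), Zfp622 398 against 3 and 6 (2.05 ± 0.90), Zfp1 179 against 0 and 2, and Zfp110 258 against 2 and 5 (1.79 ± 0.92). Zfp51 had 49 counts against 0 in both KO inputs.

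The difference between the genotypes in IP over input, for which the knockout serves as the control, gave 1 member at an unadjusted p under 0.05, Zfp719 (higher, 0.490% of members against 0.261% of all UTRs), and 0 lower, against 0.818%. Zfp719 had 132 counts in the WT IP and 4 and 41 in the WT inputs, and 116 in the KO IP and 14 and 12 in the KO inputs, with a log2 difference of 3.12 ± 1.37 (SE) and an adjusted p of 1.00 by edgeR. Before adjustment DESeq2 had 0 members under 0.05 (0.452% of all UTRs) and limma voom 2 (2.09%), with 0 called by either. Zfp113 (2.26), Zfp830 (2.14), Zfp882 (3.35) and Zfp398 (2.21) were next on the higher side. On the lower side Zfp609 (−1.50), Zfp707 (−2.32) and Zfp330 (−1.44) were named with Zfp608 and Zfp566. Of these, Zfp707, Zfp608 and Zfp566 had only 0 or 1 count in each KO input. In the batch 2 runs alone Zfp609 turned to 2.54, and Zfp398 turned to −0.25 with the runs outside batch 2. The members' median was 0.39 and that of all UTRs −0.27. The KO part of this difference coincides with the split by Lars2, so the median is not separate support for an effect of genotype. The members' median was 1.86 in the batch 2 runs alone, −0.16 with the runs outside batch 2, 0.12 with unscaled totals, 0.68 without WT input D1, 0.23 without WT input RIP8 and 0.24 without KO input RIP8.

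In WT IP over KO IP, with 1 library each and the spread taken from the inputs, 0 members were higher and 1 was lower at an unadjusted p under 0.05, against 0.157% and 0.130% of all UTRs. This was Zfp609, with 91 counts in the WT IP and 708 in the KO IP (−2.05 ± 0.93, adjusted p = 1.00 by edgeR). Before adjustment DESeq2 had 0 members under 0.05 (0.270% of all UTRs) and limma voom 4 (1.68%), and neither called one. Zfp771 (269 against 112 counts, 2.17) and Zfp180 (705 against 420, 1.66) headed the higher side, followed by Zfp113, Zfp524 and Zfp518a with 1.64, 2.08 and 1.52. Zfp942 (−1.60), Zfp608 (−2.24), Zfp512 (−1.06) and Zfp664 (−1.05) were the other lower members named. In the batch 2 runs alone Zfp180, Zfp609, Zfp942, Zfp512 and Zfp664 turned direction, with Zfp609 at 1.93.

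In KO input over WT input, 1 member was higher and 0 lower at an unadjusted p under 0.05, against 0.418% and 4.80% of all UTRs. Zfp719 had 14 and 12 counts in the KO inputs and 4 and 41 in the WT inputs, the last of these from the deepest input, with 2.02 ± 0.87 and an adjusted p of 0.953 by edgeR. Before adjustment DESeq2 had 0 members under 0.05 (3.70% of all UTRs) and limma voom 7 (4.44%), with 0 members called by either, where DESeq2 called 0.244% of UTRs. Zfp101 (1.49), Zfp82 (2.07), Zfp398 (1.58) and Zfp830 (1.27) came next, and on the lower side Zfp580 (−2.44), Zfp707 (−1.95) and Zfp110 (−1.26). In the KO inputs D1 and RIP8, Zfp580 had 1 and 0 counts, Zfp707 1 and 1, and Zfp110 2 and 5. Zfp248 and Zfp566 had 0 counts in both KO inputs, and 2 and 22, and 3 and 14, in the WT inputs. The comparisons share libraries, so their values are not independent of each other.

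The counts of called members depended on the WT inputs, of which D1 is Lars2-rich and RIP8 is not. Without WT input D1, edgeR called 14 members for WT IP over WT input (background 9.14%), 43 for KO IP over KO input (25.7%), 12 for the difference between genotypes, all higher in WT, where 4.01% of UTRs were, and 21 for KO input over WT input, all higher in KO, where 7.88% were. Zfp451 and Zfp672 were among the 12, with 4.24 and 5.07. Without WT input RIP8, edgeR called 45 of 130 members tested for WT IP over WT input (34.5% of all UTRs) and 42 for KO IP over KO input (35.2%). These fits have 1 residual degree of freedom, the spread coming from the KO inputs alone, and the lone WT input is assumed to vary like them. Without WT input D1, the WT input left is poor in Lars2 (5.70%) and both KO inputs are rich (50.1% and 37.0%). KO input over WT input and the difference between genotypes then coincide with the split by Lars2, and these cannot be told apart. Without WT input RIP8 the same holds for WT IP (5.37%) over WT input (47.2%). The calls are therefore not separate support for an effect of genotype or IP. With the run outside batch 2 used where a library had 2 runs, edgeR called 64 of 139 members for WT IP over WT input (background 47.6%), 25 for KO IP over KO input, all lower (8.69% of UTRs were), and 7 for WT IP over KO IP (6.77%).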

How the data were processed

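The authors deposited a table of raw counts per 3′ UTR with 1 column per run and 20586 rows. Per the submitters' processing notes the build was mm10 and the tools were featureCounts, R 3.5.1, Bowtie2 2.2.2 and Bowtie 1.2.3. The sources used here state neither annotation nor strand setting, nor how reads that match several places were counted. Rows carry a transcript and a UTR start. Symbols were assigned by position from the RefSeq gene table (GRCm38.p6) where the order of the rows fitted, which gave 16124 rows a symbol. The start of a RefSeq gene was matched exactly in 3814 rows, and in 6 after a shift of 1000000 bases. Of neighbouring rows that share a start and hold over 20 counts, 25 of 49 were identical in the first 9 columns and 0 of 60 in the last 11, so only the first 9 were used. The members and lists were chosen with earlier results of these data known. CPM leave out the Lars2 UTR, and log2 differences between sets of runs use a pseudocount of 10 CPM. Runs are set apart by a Lars2 share above 30%, a split made after the counts were seen.

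Tests used edgeR 4.0.16 (R 4.3.3) on counts summed per library: TMM, filterByExpr with a minimum count of 10, group means without covariates, the quasi-likelihood F test and Benjamini-Hochberg adjustment over 11496 rows, threshold 0.05. The planned samples were 6 libraries, and 2 residual degrees of freedom came from the inputs, so each lone IP is assumed to vary like them. An SE is the log2 fold change divided by the root of F, so it restates the test. Replicate numbers 1 and 8 are those of the sets D1 and RIP8 in the labels, which do not state what a set shares. In the inputs, the 1 pair that can be checked, deviations from the group means correlated at 0.193 over 11496 rows. The script was tested on simulated data. DESeq2 1.42.0, limma 3.58.1 voom, other scalings, filters, runs and left-out libraries were the alternatives. Members named are the 12 with the most counts, the 5 widest and 5 narrowest over runs among those with 200 or more counts, up to 5 per direction with the smallest p in each comparison, and those next to the minimum of 50. Genes outside this rule, such as Zfp386, Zfp568, Zfp131, Zfp143 and Zfp277, were named after their values were seen.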

Additional observations from a re-analysis of the deposited data

How the results depend on the processing

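edgeR called 0 members in each comparison, and limma voom, unscaled totals, Lars2 kept and the batch 2 runs alone also gave 0 wherever they were fitted. For KO IP over KO input DESeq2 called 4 members, all lower, where 0.539% of UTRs were. Leaving out the low-count filter gave 3, Zfp672, Zfp386 and Zfp101, all lower, where 0.642% of UTRs were. The replicate block, with 1 residual degree of freedom, gave 21, where 17.2% of UTRs were called. The other run of each library gave 25, all lower, where 8.69% were. For WT IP over WT input these were, in the same order, 0 (0.244%), 1 (Zfp771, higher, 0.629%), 3 (Zfp672, Zfp771 and Zfp1, 4.66%) and 64 of 139 (47.6%). For WT IP over KO IP the other run gave 7 (6.77%). The block called 0 members in the other 3 comparisons. Leaving out 1 library at a time gave 0 to 45 members called for WT IP over WT input, 0 to 43 for KO IP over KO input, 0 to 12 for the difference between genotypes and 0 to 21 for KO input over WT input, and only the libraries labelled WT input gave counts above 0.

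Directions turned in the batch 2 runs alone for WT IP over WT input in Zfp617 (−0.0635), Zfp180 (−0.0826), Zfp609 (0.30), Zfp652 (0.59), Zfp664 (0.20) and Zfp672 (0.87), for the difference between genotypes in Zfp609 (2.54), and for WT IP over KO IP in Zfp180 (−0.22), Zfp609 (1.93), Zfp942 (1.07), Zfp512 (1.72) and Zfp664 (1.58). With 1 library left out, Zfp672 for WT IP over WT input ranged from −4.11 without WT input replicate 8 (RIP8) to 0.0931 without replicate 1 (D1). Zfp398 turned to −0.25 for the difference between genotypes with the other run of each library. The cause was not tested.

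The ratio of the highest to the lowest Zfp share was 2.87, and 1.83 with Lars2 kept. Against UTRs of like summed count it was 2.05, and 1.77 without the 12 members of highest count. Alternatives added after the data were seen moved the members' median log2 difference to 0.29 with a pseudocount of 50 and 0.0935 with Lars2 kept, and the 81 members wholly above to 48 with Lars2 kept and to 126 over the 3 RIP8 runs, where fewer runs have to be in order. Leaving out 1 run at a time gave 159 to 164 members above 0, 83 to 89 wholly above and medians of 0.61 to 0.70. The number wholly above cannot fall when a run is left out. Depth limits the number of members with a count, which was 189 to 197 in the Lars2-rich runs and 203 or 204 in the others. At 192134 counts, 188 to 194 members are expected to have a count in each Lars2-rich run. In each of the other runs 165 to 177 are expected at this depth.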
